A study of Mus musculus with 2 samples.

Results

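The pre-B receptor and recombination genes were followed through single cells from the dura mater, the outermost of the meninges, taken from mice at postnatal day 14. They comprise 7 genes, Igll1, Vpreb1, Vpreb2, Vpreb3, Rag1, Rag2 and Dntt, chosen by name, of 19347 genes in the authors' table of annotated cells. One droplet library came from Il33-deficient mice (KO, H2B-mCherry at Il33 on both chromosomes). The other came from heterozygous mice (het), which carry the same reporter on 1 chromosome and an intact Il33 on the other. Mice were 2 weeks old, and tissue of 5 to 8 animals per genotype and sex was pooled. Cells positive for CD45 and negative for CD11b, and gp38-positive stromal cells, were sorted and added back to all viable cells, so shares of cell types are set in part by the sort.

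With 1 library per genotype no test could be made, and every interval given is a 95% counting interval that does not cover differences between animals, sorts or preparations. Intervals of levels and ratios take each UMI as an independent draw. They therefore also leave out differences between cells, and are too narrow where few cells hold many of the UMIs. The matrices held 12046 KO and 10936 het barcodes, of which the authors annotated 6594 and 5950, and the annotated cells had median totals of 12203.5 and 12746.5 unique molecular identifiers (UMIs). Between the libraries, 36 barcodes were shared in the matrices and 14 among annotated cells. Il33 itself stood at 11.8 UMIs per 1000000 UMIs (CPM) in KO and 52.7 CPM in het cells outside the B lineage. B-lineage cells were the authors' clusters 1, 2, 6, 10 and 16, with 2169 KO and 1929 het cells. The other 17 clusters, 4425 KO and 4021 het cells, served as background. The B cell receptor gene Cd79a stood at 2281 CPM in KO and 2341 CPM in het B-lineage cells, against 43.2 and 35.7 CPM in the other clusters of KO and het. The B cell surface gene Ms4a1 stood at 642 CPM in KO and 645 CPM in het B-lineage cells, against 15.7 and 13.1 CPM in the other clusters of KO and het.

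B cells assemble their immunoglobulin genes by V(D)J recombination. Rag1 and Rag2 encode the 2 subunits of the recombinase that cuts at recombination signals, and Dntt encodes terminal deoxynucleotidyl transferase, which adds untemplated nucleotides at the joints. Before a light chain exists, Igll1 (lambda 5) and Vpreb1 or Vpreb2 pair as a surrogate light chain with the newly made heavy chain to form the pre-B receptor, whose signal drives a burst of division. Vpreb3 is a related protein that binds heavy chains inside the cell and is expressed beyond the pre-B stage. In that burst recombinase expression is known to be low, and it returns when light chains are rearranged.

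The surrogate light chain genes lie on chromosome 16 of GRCm38. Igll1 (ENSMUSG00000075370) spans 16860671 to 16863985 and Vpreb1 (ENSMUSG00000059305) 16868403 to 16870843, both on the minus strand. Vpreb2 (ENSMUSG00000059280) spans 17980428 to 17981273 on the plus strand. Rag1 (ENSMUSG00000061311, chromosome 2, 101638282 to 101649501, minus strand) and Rag2 (ENSMUSG00000032864, 101624718 to 101632529, plus strand) are neighbours that point toward each other. Vpreb3 (ENSMUSG00000000903) lies on chromosome 10 from 75943057 to 75949657, and Dntt (ENSMUSG00000025014) on chromosome 19 from 41029275 to 41059525, both on the plus strand.

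All 7 genes matched a promoter window, 250 bases before to 50 after the start, in RefSeq's table for GRCm38.p6. The gene extents above come from the GENCODE annotation, and the start in RefSeq's table is another for some members. It lies 1588 bases inside the extent of Vpreb1, 137 bases inside that of Vpreb2 and 5243 bases inside that of Vpreb3, so these windows are not upstream of the extents given. For Igll1 and Dntt the starts coincide, and for Rag1 and Rag2 they lie close together. The windows of Vpreb1 (chr16:16869206-16869505, minus strand) and Vpreb2 (chr16:17980315-17980614, plus strand) are shown because these genes are near copies and their counts must be read with that in mind. Capitals mark the longest run that the windows share, 91 bases.
Vpreb1: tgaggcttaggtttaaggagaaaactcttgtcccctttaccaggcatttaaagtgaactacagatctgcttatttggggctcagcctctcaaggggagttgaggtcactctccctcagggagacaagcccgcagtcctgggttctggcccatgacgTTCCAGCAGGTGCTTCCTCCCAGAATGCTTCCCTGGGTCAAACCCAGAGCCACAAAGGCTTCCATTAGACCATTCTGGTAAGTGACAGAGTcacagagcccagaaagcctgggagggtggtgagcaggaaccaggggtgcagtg
Vpreb2: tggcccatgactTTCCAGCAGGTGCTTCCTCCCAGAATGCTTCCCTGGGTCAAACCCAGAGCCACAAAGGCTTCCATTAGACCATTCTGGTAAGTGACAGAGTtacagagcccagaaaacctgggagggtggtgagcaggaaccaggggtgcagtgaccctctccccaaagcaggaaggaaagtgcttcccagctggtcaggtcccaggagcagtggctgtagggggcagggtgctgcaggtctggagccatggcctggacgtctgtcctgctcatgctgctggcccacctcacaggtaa
When the windows were laid over each other at that run, 153 of 156 bases were identical (98.1%). Their main transcripts, 766 bases for Vpreb1 and 759 for Vpreb2, were identical at 739 of 759 aligned bases (97.4%), with a shared run of 196 bases. Reads from such stretches cannot be assigned to 1 of these genes, so the division of UMIs between Vpreb1 and Vpreb2 is uncertain.

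The windows of Igll1 (chr16:16863936-16864235, minus strand) and Rag1 (chr2:101649483-101649782, minus strand) are shown as examples of the surrogate light chain and recombinase promoters. Capitals mark matches, on either strand, to CAGGTG (an E-box bound by the Tcf3 product), CCCNNGGG (a core of EBF1 sites) and TGGGAA (a core of Ikaros sites).
Igll1: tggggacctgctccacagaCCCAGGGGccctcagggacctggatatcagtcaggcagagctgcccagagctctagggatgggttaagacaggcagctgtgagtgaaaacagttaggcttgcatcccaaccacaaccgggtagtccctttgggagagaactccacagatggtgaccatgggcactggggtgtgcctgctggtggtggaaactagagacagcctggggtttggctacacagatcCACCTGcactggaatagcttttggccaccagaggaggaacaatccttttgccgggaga
Rag1: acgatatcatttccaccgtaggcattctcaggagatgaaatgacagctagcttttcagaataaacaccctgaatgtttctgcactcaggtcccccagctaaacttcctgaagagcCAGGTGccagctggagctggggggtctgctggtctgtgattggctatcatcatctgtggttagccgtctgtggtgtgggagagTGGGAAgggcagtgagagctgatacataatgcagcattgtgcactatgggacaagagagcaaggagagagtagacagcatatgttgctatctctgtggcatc
A CAGGTG match was present in 4 of 7 member windows (Igll1, Vpreb1, Vpreb2 and Rag1) and in 20.2% of all 32851 windows. CCCNNGGG was found in 1 of 7 (Igll1) and in 13.7% of all windows, and TGGGAA in 2 of 7 (Vpreb2 and Rag1) and in 25.6%. These are letter matches only, and the Vpreb1 and Vpreb2 windows are not independent of each other.

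Cluster 16 held the highest level of every member, with Igll1 at 2442 CPM in KO and 2497 CPM in het, Vpreb1 at 6207 and 6236 CPM, and Dntt at 1441 and 1189 CPM. An Igll1 UMI was seen in 97 of 97 KO and 126 of 126 het cells of cluster 16, and a Vpreb1 UMI likewise in all of them. Rag1 was present too, in 84 of 97 KO cells (86.6%, exact Clopper-Pearson interval 78.2 to 92.7) and 110 of 126 het cells (87.3%, 80.2 to 92.6). Mki67, a proliferation marker, was low in cluster 16, at 17.2 CPM in KO and 14.9 CPM in het.

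Within cluster 16 the members varied from cell to cell by an order of magnitude. Igll1 ranged from 1 UMI to 41 with a median of 16 in KO cells, and from 4 UMIs to 41 with a median of 15 in het cells. Vpreb1 had medians of 38 UMIs in KO cells and 38.5 in het cells, with the highest cell at 105 and 111. Dntt had medians of 8 and 7 UMIs per KO and het cell, and the lowest cell in each library had 0. Cells of the KO and het libraries overlapped over most of these ranges.

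Cluster 6 was cycling, with Mki67 at 604 CPM in KO and 683 CPM in het, and it carried intermediate levels of the surrogate light chain. Igll1 had 397 CPM in KO and 485 CPM in het, Vpreb1 671 and 868 CPM, and Vpreb2 50.6 and 70.6 CPM. Rag1 was low, at 29.9 CPM in KO (26.2 to 34.0) and 35.0 CPM in het (30.8 to 39.5). Cells of cluster 6 had median totals of 19368 KO and 19690 het UMIs, and this cluster supplied 62.2% of Igll1 UMIs in KO and 59.3% in het. Cluster 16 supplied 31.5% of Igll1 UMIs in KO and 33.4% in het.

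Cluster 1 had high Rag1 and little surrogate light chain. Rag1 stood at 402 CPM in KO (382 to 423) and 523 CPM in het (495 to 551), and 61.7% of all Rag1 UMIs in KO and 57.6% in het came from this cluster. Igll1 had only 18.4 CPM in KO and 22.8 CPM in het, with a UMI in 27 of 829 and 25 of 646 cells. Dntt had 1.92 CPM in KO from 7 UMIs and 4.94 CPM in het from 13 UMIs, against 4.88 CPM in KO and 2.87 CPM in het outside the B lineage. Much of that outside level came from few cells. Vpreb3 was present in 828 of 829 KO cells and 645 of 646 het cells, at 4058 and 4104 CPM.

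Cluster 10, the other cycling cluster, had Mki67 at 1081 CPM in KO and 994 CPM in het. It held Rag1 at 32.8 CPM in KO and 34.3 CPM in het, Igll1 at 33.2 and 38.4 CPM, and Vpreb3 at 2591 and 2462 CPM. Dntt was seen as 1 UMI in each library there. The het part of cluster 10 also held neutrophil markers at a summed 2954 CPM, against 49.1 CPM in KO, and fibroblast markers at 2108 CPM against 914 CPM. Their part in the het levels of that cluster was not tested.

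Cluster 2, marked by the mature B cell gene Ms4a1 (CD20), was low for all members but Vpreb3. Vpreb3 stood at 1892 CPM in KO and 1790 CPM in het. Rag1 had 7.06 CPM in KO and 7.57 CPM in het, against 2.47 and 2.19 CPM outside the B lineage of KO and het. Vpreb1 had 57 UMIs in KO, of which 37 were in 1 cell, and 6 UMIs in het.

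**Figure D1:**
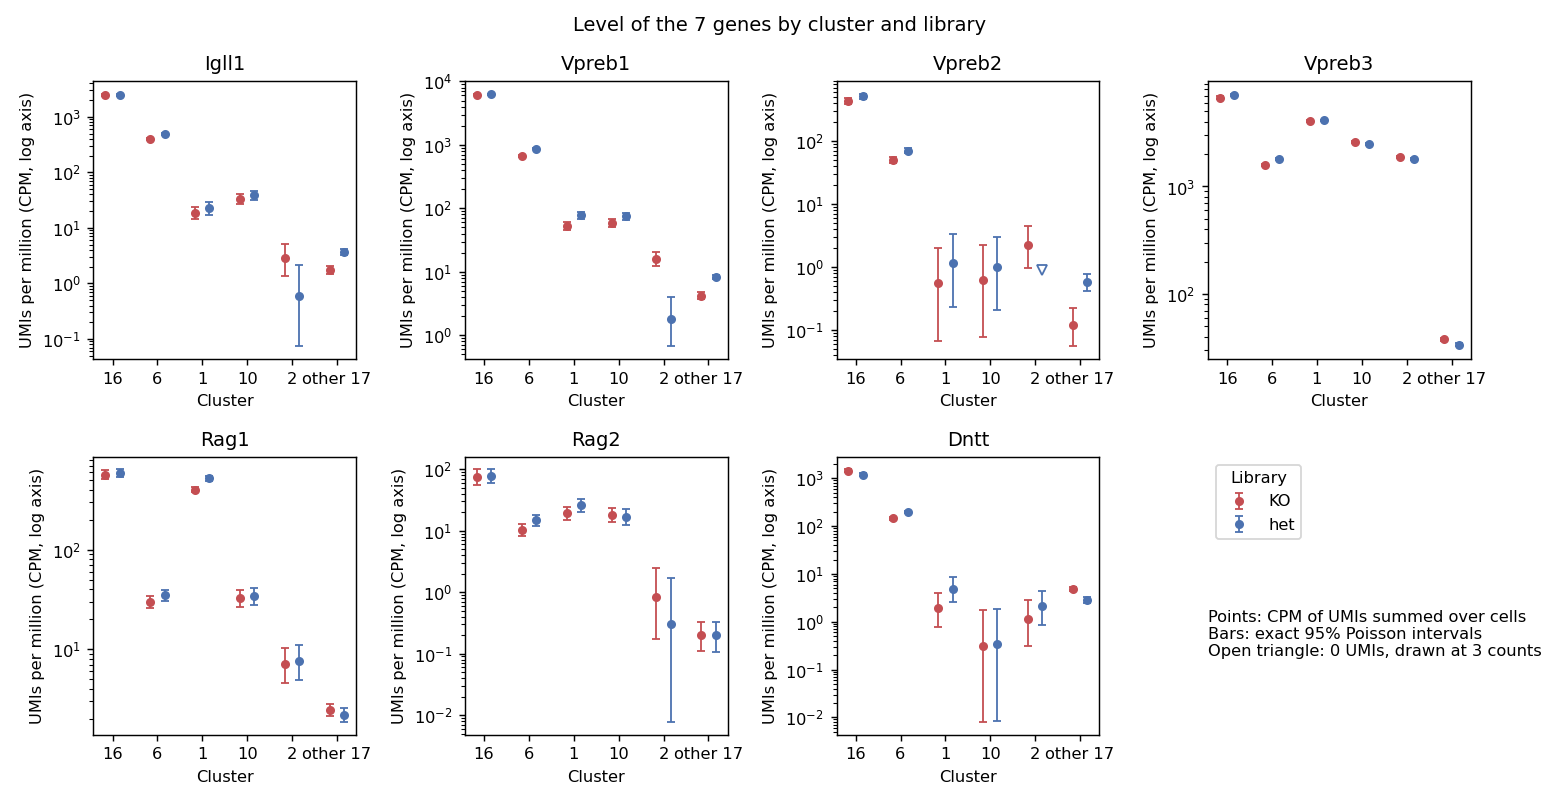
Level of each gene (CPM, log axis) in clusters 16, 6, 1, 10 and 2 and in the other 17 clusters together, for the KO library (red, left) and the het library (blue, right), with exact 95% Poisson intervals. Igll1, Vpreb1, Vpreb2 and Dntt fall from cluster 16 to cluster 6 and then to far lower levels, while Rag1 is high in clusters 16 and 1 and Vpreb3 is above 1000 CPM in all 5 B-lineage clusters.

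Ordered by level, Igll1 ran from cluster 16 to 6, 10, 1 and 2 in both libraries, with no overlap between the intervals of neighbours. Vpreb1 ran likewise from cluster 16 to 6, but clusters 10 and 1 had overlapping intervals in both libraries. Rag1 was highest in cluster 16 and next in cluster 1, whose intervals overlapped in het (535 to 642 and 495 to 551 CPM) and not in KO, and those of clusters 10 and 6 overlapped in both libraries. Vpreb3 ran from cluster 16 through 1 and 10 to clusters 2 and 6, which overlapped in het, and its lowest B-lineage level (1594 CPM in KO cluster 6) was still above the 37.9 CPM of the KO background. In the B lineage as a whole, Igll1 was 147 times the background in KO (123 to 176) and 91.6 times in het (80.9 to 104). The B-lineage level of Dntt was 22.5 times that of the other clusters in KO and 49.4 times in het, and Rag1 was 47.3 and 59.7 times. The Dntt background rests on few cells, with 51.9% of its KO and 47.8% of its het UMIs in 3 cells.

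The Rag1 to Rag2 ratio differed between the clusters by more than counting error. There were 20.9 Rag1 UMIs per Rag2 UMI in KO cells of cluster 1 (16.5 to 27.0) and 20.2 in het cells (15.8 to 26.2). In cluster 16 the ratio was 7.54 in KO (5.57 to 10.4) and 7.52 in het (5.78 to 9.95). In the cycling clusters it was 2.94 in KO and 2.37 in het for cluster 6, and 1.81 and 2.04 for cluster 10. The intervals of clusters 1, 16 and 6 did not overlap in either library, and the libraries overlapped in each cluster. Rag1 in cluster 1 was 13.4 times its level in cluster 6 in KO (11.7 to 15.5) and 14.9 times in het (13.1 to 17.1). Rag2 in cluster 1 was 1.88 times its level in cluster 6 in KO (1.35 to 2.63) and 1.75 times in het (1.27 to 2.39).

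The Rag1 gene lies inside B230118H07Rik (chromosome 2, 101560781 to 101649532, same strand), so reads that fit both genes may have been left out or misassigned. B230118H07Rik stood at 93.2 CPM in KO and 91.6 CPM in het cells of cluster 1, and at 81.4 and 71.8 CPM in cluster 16. It had 20.4 and 17.9 CPM in cluster 6 and 33.5 and 35.9 CPM outside the B lineage, where Rag1 was at 2.47 and 2.19 CPM. Its part in the Rag1 counts was not tested.

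Among the surrogate light chain genes, the Vpreb1 to Igll1 ratio varied over a narrower range than Rag1 to Rag2, although its intervals in clusters 16 and 6 did not overlap in either library. There were 2.54 Vpreb1 UMIs per Igll1 UMI in KO (2.40 to 2.70) and 2.50 in het cells (2.37 to 2.63) of cluster 16, and 1.69 (1.62 to 1.77) and 1.79 (1.72 to 1.86) in cluster 6. Cluster 10 had 1.79 in KO and 1.94 in het. The Vpreb1 to Vpreb2 ratio varied more widely. It was 14.2 in KO and 12.1 in het in cluster 16, and 13.3 and 12.3 in cluster 6. In clusters 1 and 10 Vpreb2 was almost absent, with 2 KO and 3 het UMIs in each of them against 191 KO and 203 het Vpreb1 UMIs in cluster 1, a ratio of 95.5 in KO (26.1 to 794) and 67.7 in het (22.8 to 331).

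**Figure D2:**
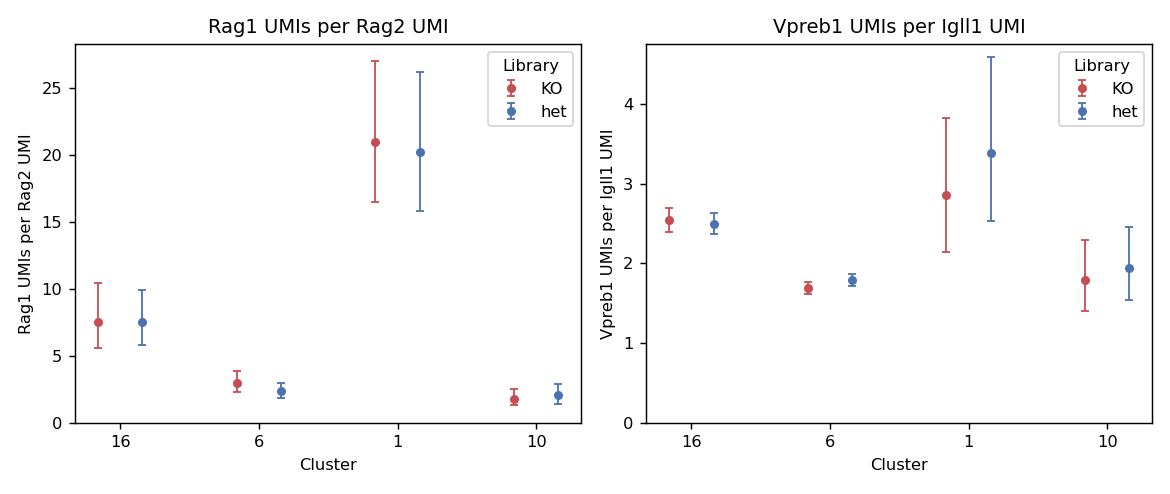
UMIs of Rag1 per UMI of Rag2 (left panel) and of Vpreb1 per UMI of Igll1 (right panel) in clusters 16, 6, 1 and 10, with 95% counting intervals, for KO (red, left) and het (blue, right). The Rag1 to Rag2 ratio is near 20 in cluster 1 and near 2 in cluster 10 in both libraries, while the Vpreb1 to Igll1 ratio stays between 1.69 and 3.38.

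The cells of cluster 6 were divided by whether a Dntt UMI was seen, a description chosen with values known. A Dntt UMI was present in 72 of 328 KO cells (22%, 17.6 to 26.8) and 94 of 319 het cells (29.5%, 24.5 to 34.8), and these cells had median totals of 19816.5 and 20524 UMIs, close to the 18926 and 19173 of the cells without. Cells with a Dntt UMI held Rag1 at 86.9 CPM in KO and 80.8 CPM in het, whereas cells without one held Rag1 at 15.3 and 15.5 CPM. Igll1 stood at 867 CPM in KO and 859 CPM in het with a Dntt UMI, and at 276 and 327 CPM without. Vpreb1 had 1671 and 1685 CPM with, and 413 and 520 CPM without. Mki67 stood at 560 CPM in KO and 749 CPM in het with a Dntt UMI, and at 616 and 656 CPM without. In cells with a Dntt UMI the levels of Igll1 and Vpreb1 thus lay close together in KO and het. In cells without one both were lower in KO, Igll1 at 276 against 327 CPM and Vpreb1 at 413 against 520 CPM. The share of cells with a Dntt UMI was lower in KO, with overlapping intervals.

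**Figure D3:**
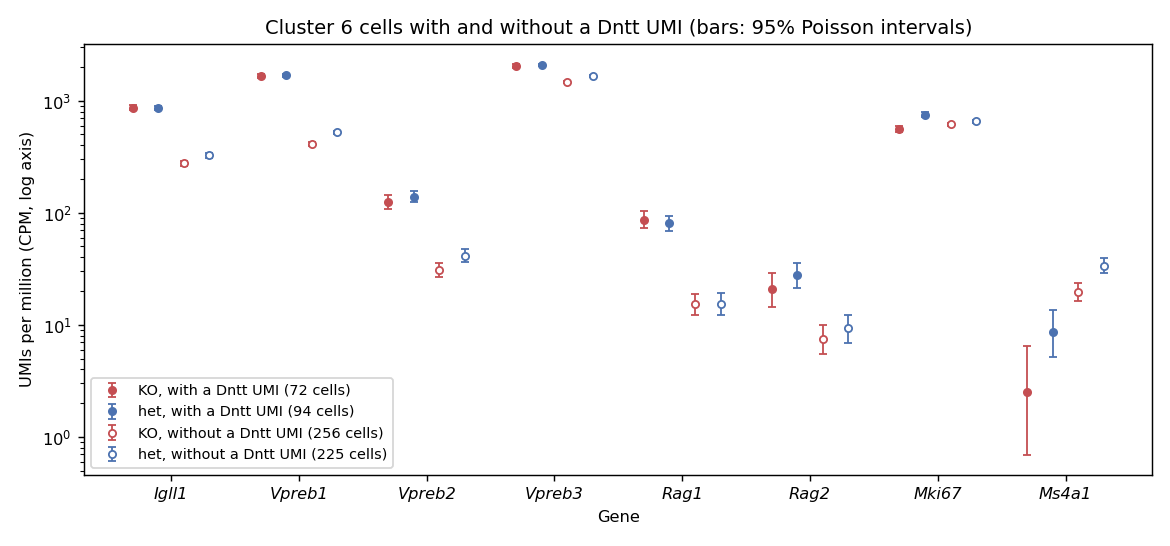
Level (CPM, log axis) of 6 members, Mki67 and Ms4a1 in cluster 6 cells with a Dntt UMI (filled; 72 KO and 94 het cells) and without (open; 256 KO and 225 het cells), with 95% Poisson intervals. Rag1, Rag2, Igll1, Vpreb1 and Vpreb2 are higher in cells with a Dntt UMI in both libraries, Mki67 differs little, and Ms4a1 is lower.

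Cluster 6 was divided in the same way by Ms4a1. Cells with an Ms4a1 UMI (49 KO and 47 het) held Igll1 at 369 CPM in KO and 517 CPM in het, close to the 406 and 476 CPM of cells without. Rag1 was 4.86 CPM in KO and 5.79 CPM in het with an Ms4a1 UMI, against 37.8 and 43.9 CPM without. Dntt was 10.3 and 30.1 CPM with, against 188 and 246 CPM without. The cells with an Ms4a1 UMI were deeper, with median totals of 39906 KO and 33793 het UMIs against 16802 and 17801, and the part of depth in this split was not tested.

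In cluster 10, cells with an Igll1 UMI (39 KO and 38 het) held Rag1 at 11.9 CPM in KO and 13.6 CPM in het, from 8 UMIs in each library, below the 38.4 and 39.4 CPM of cells without one. Rag2 differed less, at 14.9 CPM in KO and 17 CPM in het with an Igll1 UMI and 19.0 and 16.8 CPM without. These divisions used the presence of a UMI and carry no test.

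By the authors' deposited cell cycle calls, Rag2 in cluster 6 stood at 12.2 CPM in KO and 18.4 CPM in het cells called G2M (Mki67 765 and 897 CPM). It stood at 6.30 CPM in KO and 8.33 CPM in het cells called S (Mki67 276 and 295 CPM). Rag1 in cluster 6 had 31.6 and 41.1 CPM in G2M and 25.2 and 23.0 CPM in S. Igll1 ran the other way, with 380 CPM in KO and 457 CPM in het in G2M against 460 and 551 CPM in S. Values for cells called G1 are not given here. Rag2 in cluster 6 rests on 79 KO and 109 het UMIs over all phases, and its difference between phases was not tested.

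To compare cells of unequal depth, the share expected to show a UMI at 1000 UMIs per cell was computed. In cluster 16 this was 88.8% of KO and 90.1% of het cells for Igll1, 66.4% and 60.3% for Dntt, and 40.8% and 42.1% for Rag1. In cluster 6 it was 25.5% and 29.9% for Igll1 and 5.11% and 5.06% for Rag1. In cluster 1 it was 1.13% and 1.49% for Igll1 but 30.4% and 36.7% for Rag1. Outside the B lineage the shares were 0.143% and 0.22% for Igll1 and 0.246% and 0.193% for Rag1, against unthinned shares of 1.24% and 1.42%, and of 2.35% and 1.87%, at median totals of 15648 KO and 16070 het UMIs. At that depth 90.7% of KO and 92.1% of het cells of cluster 16 with a Dntt UMI also had an Igll1 UMI, against 64.2% and 61.5% in cluster 6. In cluster 16 these shares were close to the Igll1 shares of all its cells (88.8% and 90.1%). In cluster 6 they were well above those of all its cells (25.5% and 29.9%).

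Across the B-lineage clusters together, the summed levels of all 7 members were lower in KO with counting intervals below 1, Vpreb3 by the least. The share of all genes with such intervals is not given here, and at high UMI totals a small difference is enough for one. Igll1 stood at 257 CPM in KO and 338 CPM in het, a ratio of 0.760 (0.731 to 0.790). Vpreb1 stood at 511 CPM in KO and 694 CPM in het, a ratio of 0.736 (0.717 to 0.757). Dntt had 110 and 142 CPM, a ratio of 0.774 (0.729 to 0.821), and Rag2 had 13.7 and 17 CPM, a ratio of 0.807 (0.680 to 0.958). Rag1 differed less, at 117 CPM in KO and 131 CPM in het, a ratio of 0.892 (0.841 to 0.947). Vpreb3 had 2472 and 2514 CPM, a ratio of 0.983 (0.970 to 0.996).

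Vpreb2, at 36.4 CPM in KO and 55.2 CPM in het with a ratio of 0.660 (0.598 to 0.729), was the 1 of 7 members at least 1.5-fold from 1. Of all 10212 genes with at least 100 UMIs there, 2.19% were that far from 1, and 1.17% of the 10212 were that far lower in KO. The median log2 ratio was -0.37 over the members and -0.02 over all genes. Of 14 marker lists of other cell types, 6 had summed levels at least 1.5-fold apart between the libraries in these cells. Macrophage markers stood at 38.0 CPM in KO and 93.8 CPM in het B-lineage cells, neutrophil markers at 64.7 and 554 CPM, mast cell markers at 24.6 and 47.3 CPM and granulocyte progenitor markers at 2.77 and 4.56 CPM. Higher in KO were mural markers, at 32.0 CPM in KO and 8.43 CPM in het, and NK and ILC markers, at 12.4 and 6.09 CPM. Their part in the member ratios was not tested.

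The mix of clusters differed between the libraries. Cluster 16 made up 97 of 2169 B-lineage cells in KO (4.47%, 3.64 to 5.43) and 126 of 1929 in het (6.53%, 5.47 to 7.73), while cluster 1 made up 38.2% in KO (36.2 to 40.3) and 33.5% in het (31.4 to 35.6). When each of the 5 clusters was given the same weight, the KO/het ratio was 0.950 for Igll1, 0.965 for Vpreb1, 0.838 for Vpreb2 and 1.14 for Dntt. By that measure Vpreb2 was not past the fold and Dntt not lower. It is set mostly by cluster 16, whose levels are highest and whose ratios were 0.978 for Igll1 and 1.21 for Dntt. In cluster 6 the ratios were 0.818 and 0.744. The part of the cluster mix in the summed ratios was not tested.

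Within clusters no member with at least 100 UMIs was 1.5-fold from 1. The share of genes past that fold in either direction was 2.39% in cluster 16, 3.31% in cluster 6, 2.60% in cluster 1, 4.87% in cluster 10 and 2.70% in cluster 2. In cluster 16 the KO/het ratio was 0.978 for Igll1 (0.915 to 1.05), 0.995 for Vpreb1 (0.954 to 1.04), 0.966 for Rag1 (0.840 to 1.11) and 0.963 for Rag2 (0.648 to 1.43). Dntt was higher in KO there, with a ratio of 1.21 (1.11 to 1.33), and Vpreb2 lower, with 0.851 (0.729 to 0.993). Of the 14 marker lists of other cell types, 6 were at least 1.5-fold apart in cluster 16, the highest being fibroblast markers at 1865 CPM in KO and 1143 CPM in het and neutrophil markers at 72 and 44.6 CPM. Their part was not tested.

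In cluster 6 all 7 members were lower in KO, with ratios from 0.690 for Rag2 (0.510 to 0.930) to 0.890 for Vpreb3 (0.868 to 0.912). Dntt had 0.744 (0.688 to 0.805) and Igll1 0.818 (0.779 to 0.859). The counting intervals of 6 of 7 lay below 1, Rag1 being the exception at 0.856 (0.714 to 1.03). That count has no background, since the share of all genes with such intervals is not given here. The median log2 ratio of the members was -0.37 against -0.01 for all genes. In cluster 6, 3 of the 14 marker lists of other cell types were at least 1.5-fold apart: macrophage markers at 41.0 CPM in KO and 99.6 CPM in het, mural markers at 65.7 and 8.13 CPM, and NK and ILC markers at 10.5 and 4.34 CPM. The part of these markers was not tested. In cluster 1 Rag1 had a ratio of 0.769 (0.714 to 0.828), Rag2 0.742 (0.524 to 1.05) and Vpreb1 0.679 (0.554 to 0.831). Igll1 had 0.805 there (0.560 to 1.16) and Vpreb3 0.989 (0.964 to 1.01). Of the Vpreb1 UMIs in cluster 1, 75 of 191 in KO and 49 of 203 in het were in 3 cells. In cluster 1, 5 of the 14 marker lists were at least 1.5-fold apart, and their part was not tested.

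**Figure D4:**
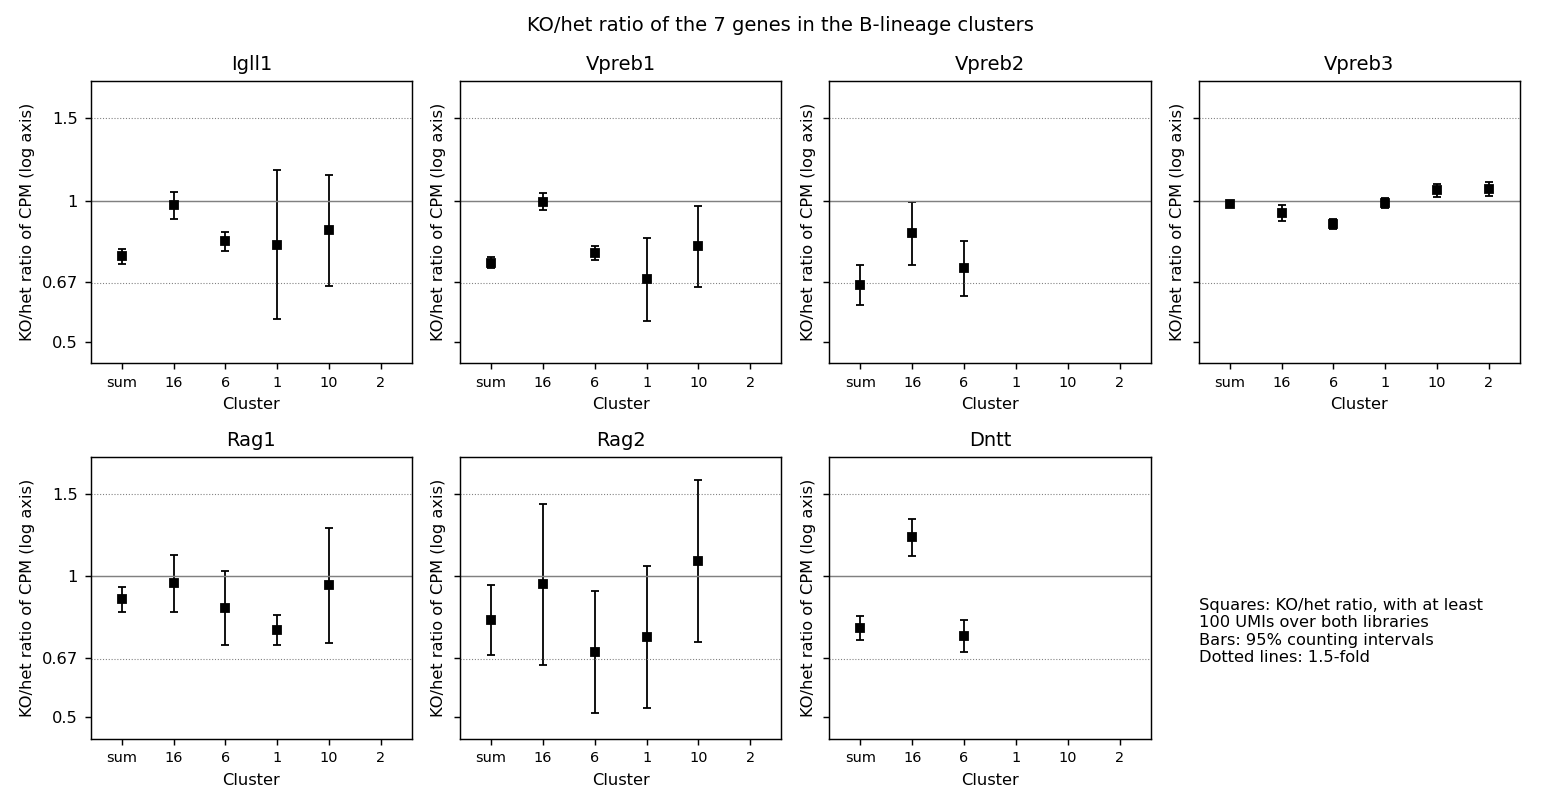
KO/het ratio of CPM (log axis) for each member over the 5 B-lineage clusters summed and in each cluster, with 95% counting intervals, where both libraries together held at least 100 UMIs. Squares for cluster 16 lie near 1 except Dntt at 1.21 and Vpreb2 at 0.851, those for cluster 6 lie below 1, and only the summed Vpreb2 (0.660) lies beyond the dotted 1.5-fold line.

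Each library held cells of both sexes by the authors' sex label. In female-labelled cells the B-lineage KO/het ratio of Rag1 was 0.996 (0.915 to 1.08) and in male-labelled cells 0.768 (0.707 to 0.836). For Dntt it was 0.906 and 0.641, and for Vpreb1 0.819 and 0.641. Igll1 was lower in KO in both, at 0.795 and 0.712. The direction was shared for all but Vpreb3 (1.01 and 0.940). In cluster 6 the Dntt ratio was 0.989 in female-labelled cells (0.892 to 1.10), from 173 CPM in KO and 175 CPM in het, and 0.510 in male-labelled cells (0.450 to 0.577), from 116 and 227 CPM. Rag1 in cluster 6 had 1.07 (0.847 to 1.36) and 0.633 (0.472 to 0.847), so it was not lower in KO in female-labelled cells. In cluster 16 Rag2 had 0.695 (0.398 to 1.18) and 1.68 (0.878 to 3.30), the intervals holding 1. The difference between sexes was not tested.

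Lists of genes around the members were compared in the same way, summed over the B-lineage clusters. The recombination partners include genes that repair the broken ends, such as the Ku genes Xrcc5 and Xrcc6, and Lig4. Of these partners 0 of 13 were past the fold, with a median log2 ratio of -0.08. Of pre-B receptor signaling genes, 0 of 11 measured (12 listed) were past it, median -0.07, and of transcription factors that regulate the members, such as Ebf1, Pax5 and Ikzf1, 0 of 12, median 0.01. Genes of division in large pre-B cells had 0 of 12 and a median of -0.10, and later B cell genes 0 of 9 measured (14 listed), median 0.00. The immunoglobulin genes of these lists, such as Ighm and Igkc, were absent from the annotated counts and could not be compared. Among 9 early precursor genes, with a median of -0.20, 2 were past the fold, both lower in KO: the progenitor marker Cd34, at 4.16 CPM in KO and 6.85 CPM in het (ratio 0.607, 0.450 to 0.815), and the cytokine receptor gene Flt3, at 2.61 and 4.10 CPM (0.637, 0.433 to 0.931). Cd34 and Flt3 were the only genes of these lists past the fold, against 1.17% of all genes lower in KO.

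In cluster 2, 6 of the 12 division genes were past the fold, all higher in KO, with a median log2 ratio of 0.51, against 1.84% of all genes higher there. Summed, the 12 genes stood at 912 CPM in KO and 866 CPM in het, and the most abundant of them, the cyclin gene Ccnd2, stood at 324 and 408 CPM. Mki67 stood at 57.9 CPM in KO and 37.5 CPM in het cells of cluster 2, a ratio of 1.54 (1.23 to 1.94), and the cyclin gene Ccnb1 at 31.9 and 13.6 CPM, a ratio of 2.34 (1.65 to 3.39). Of the 14 marker lists, 6 were at least 1.5-fold apart in cluster 2. Fibroblast markers stood at 1849 CPM in KO and 1144 CPM in het, neutrophil markers at 94.6 and 52.1 CPM, mast cell markers at 25.7 and 178 CPM, granulocyte progenitor markers at 2.54 and 8.47 CPM, conventional DC markers at 3.67 and 7.57 CPM, and mural markers at 10.7 and 6.66 CPM. Their part in the division genes was not tested. Of the members, only Vpreb3 reached 100 UMIs there, with a ratio of 1.06 (1.02 to 1.09).

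Outside the B lineage, many Igll1 UMIs sat in a few cells. In cluster 8 of the het library 50 of 59 Igll1 UMIs were in 1 cell, and in cluster 15 of the KO library 20 of 27. In cluster 3 of the het library, 65 of 87 Igll1 UMIs were in 3 cells. Summed over the other clusters, Igll1 was at 1.75 CPM in KO and 3.69 CPM in het, with 55 of 132 KO UMIs and 99 of 261 het UMIs in 3 cells.

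Dntt was the member with a second place. Cluster 12 held mast cell markers at a summed 5496 CPM in KO and 11024 CPM in het, and granulocyte progenitor markers (Mpo, Elane, Prtn3 and Ctsg) at 3328 and 5306 CPM. In it Dntt stood at 64.6 CPM in KO (56.6 to 73.4) and 27.7 CPM in het (22.3 to 33.9). It came from 8 of 214 KO cells and 7 of 166 het cells, with 82.0% of the KO and 88.2% of the het UMIs in 3 cells, so it rests on few cells. The KO/het ratio was 2.34 (1.83 to 3.00), in a cluster where 12.7% of genes with at least 100 UMIs were at least 1.5-fold from 1. Per 100 Vpreb3 UMIs there were 156 Dntt UMIs in KO (127 to 193) and 107 in het (78.9 to 145) in cluster 12, against 4.44 and 5.63 in the B lineage. The KO cells with a Dntt UMI in cluster 12 held 233 Dntt UMIs, 0 Vpreb3 UMIs, 0 Igll1 UMIs and 1 Cd79a UMI.

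Flt3, Cd34 and Il7r were higher in the cluster 12 cells with a Dntt UMI in both libraries. Flt3 stood at 212 CPM in KO and 129 CPM in het cells of cluster 12 with a Dntt UMI, against 5.23 and 16.4 CPM in the cells without. The progenitor gene Cd34 had 224 and 246 CPM with, and 47.4 and 63.0 CPM without. Il7r, the interleukin 7 receptor gene, had 109 and 69.6 CPM with, and 7.55 and 14.5 CPM without. Mpo, a granulocyte progenitor gene, was lower in them, at 90.8 CPM in KO and 241 CPM in het against 783 and 1069 CPM. The het cells with a Dntt UMI also held 41 Vpreb3, 19 Igll1 and 29 Cd79a UMIs, where the KO cells held 0, 0 and 1. Of the 22 Igll1 UMIs in het cluster 12, 19 were in 1 cell. Among cluster 12 cells, 26.6% in KO and 21.7% in het were in the tenth of cells with the highest Scrublet doublet score of their library.

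**Figure D5:**
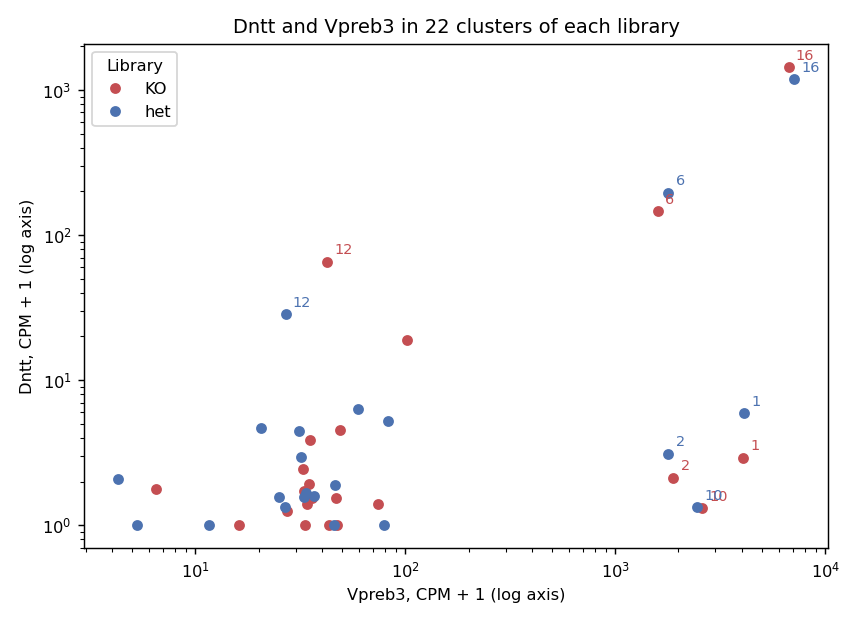
Dntt against Vpreb3 (CPM + 1, both axes log) in each of 22 clusters of the KO (red) and het (blue) libraries, with the B-lineage clusters and cluster 12 numbered. Clusters 16 and 6 are high for both genes, clusters 1, 2 and 10 for Vpreb3 alone, and cluster 12 holds Dntt at 64.6 (KO) and 27.7 CPM (het) with background Vpreb3.

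Over the 44 values of 22 clusters in 2 libraries, the members resembled each other to different degrees, as Pearson's r of log2(CPM + 1). These values share libraries and cell totals, and r is given as a description. Igll1 and Vpreb1 had r = 0.973, Igll1 and Vpreb2 0.928, Igll1 and Dntt 0.858, and Igll1 and Rag1 0.810. Among 13306 other genes, those nearest to Igll1 were Prep (0.898), Crhbp (0.896) and Arntl (0.857). For Vpreb1 they were Prep (0.887), Crhbp (0.868) and Slc12a3 (0.861), and for Vpreb2 Crhbp (0.897), Srfbp1 (0.871) and Fcrl6 (0.871). For Vpreb3 they included the B cell receptor gene Cd79a (0.972) and the coactivator gene Pou2af1 (0.968). For Rag1 they were Slc12a3 (0.929), Stambpl1 (0.902) and Slamf6 (0.880), and for Rag2 Slc12a3 (0.955), Mei4 (0.933) and the Ku gene Xrcc6 (0.925). Dntt was nearest to Crhbp (0.900), Rnase12 (0.873) and Srfbp1 (0.846).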

How the data were processed

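Per the labels' protocols, dural meninges were digested at 37 degrees, sorted and run on 10x Genomics droplets, and per the submitters' processing notes the authors used Cell Ranger 3.0.2 and mm10. The deposited values are UMI counts per gene and cell. The authors' table of annotated cells (12544 cells, 19347 genes) and its cluster, sex and cell cycle labels were used, with the percent of mitochondrial UMIs that the authors deposited per cell read only to describe the classes. In 854 KO and 817 het values it differed from the deposited matrices (27998 genes), none of them in the members. Counts were summed per cluster and library and scaled to 1000000 UMIs (CPM). Intervals are exact Poisson, Clopper-Pearson, or conditional binomial for ratios, at 95%. A gene was compared with at least 100 UMIs and called past a 1.5-fold ratio. Shares at 1000 UMIs are hypergeometric expectations. Named genes were the members, list genes and the 3 most similar genes of each member. One gene that this rule names is not reported here. Members and lists were chosen with earlier results of these data known. Scripts were checked on simulated counts. Scrublet (scanpy 1.11.5) called 0.0152% of KO and 0.0504% of het cells, too few to use, so no doublets were removed, and the 10% of cells with the highest score were left out as an alternative.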

Additional observations from a re-analysis of the deposited data

Results flagged for a closer look

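Dntt and Vpreb3 differed between the libraries in opposite directions in different B-lineage clusters, with counting intervals on both sides of 1. These intervals leave out differences between cells. For Dntt the KO/het ratio was 1.21 (1.11 to 1.33) in cluster 16, where it stood at 1441 CPM in KO and 1189 CPM in het. It was 0.744 (0.688 to 0.805) in cluster 6, where Dntt stood at 145 CPM in KO and 195 CPM in het. Under 8 alternatives the Dntt ratio ran from 1.14 to 1.33 in cluster 16 and from 0.510 to 0.989 in cluster 6. In cluster 6 the lowest was that of male-labelled cells (0.450 to 0.577). The highest was that of female-labelled cells (0.892 to 1.10), an interval that holds 1.

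The Vpreb3 differences were smaller. Its KO/het ratio was 1.06 (1.02 to 1.09) in cluster 2 and 1.05 (1.02 to 1.09) in cluster 10, and 0.890 (0.868 to 0.912) in cluster 6 and 0.942 (0.905 to 0.980) in cluster 16. With 1 library per genotype, the difference between clusters was not tested for either gene.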

How the results depend on the processing

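Values below are KO/het ratios summed over the B-lineage clusters. With the same weight per cluster they were 0.950 for Igll1, 0.965 for Vpreb1, 0.838 for Vpreb2 and 1.14 for Dntt. Cluster size then has no part, but cluster 16, with the highest levels, counts most. In female-labelled cells they were 0.795 for Igll1, 0.819 for Vpreb1, 1.01 for Vpreb3, 0.996 for Rag1 and 0.906 for Dntt, and in male-labelled cells 0.712, 0.641, 0.940, 0.768 and 0.641 in that order. Without cluster 1 they were 0.795 for Igll1, 0.771 for Vpreb1, 0.939 for Vpreb3 and 0.806 for Rag1. Without cluster 6 they were 0.700 for Igll1, 0.710 for Vpreb1, 1.01 for Vpreb3 and 0.837 for Dntt, and without cluster 16, 1.02 for Vpreb3 and 0.699 for Dntt. Vpreb3 was 0.970 without cluster 2, 0.969 without cluster 10 and 0.970 without the 10% of cells with the highest Scrublet score. Igll1 was 0.718 as a mean over cells. Causes of these shifts were not tested. The share of cells with a Dntt UMI that also had an Igll1 UMI was, at 500 and 2000 UMIs per cell, 72.2% and 98.5% in KO and 73.1% and 99.2% in het for cluster 16, and 41.7% and 84.0% in KO and 39.4% and 81.8% in het for cluster 6, since fewer or more UMIs were drawn.

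Of 141 alternative values for the summed ratios, shares and list counts, 105 lay within the counting interval of the reported value (for list counts, within 1.5 times the count) and 36 did not. Of 168 for single clusters and other pairs of members, 145 did and 23 did not. No ratio at least 1.5-fold from 1 changed direction, but among the member level ratios only the summed Vpreb2 was that far from 1. Ratios nearer 1 did cross it. The summed Dntt ratio ran from 0.641 to 1.14 and Vpreb3 from 0.939 to 1.02. Rag1 in cluster 6 ran from 0.633 to 1.07 and Rag2 in cluster 16 from 0.695 to 1.68. The deposited matrices, the total without mitochondrial and ribosomal protein genes and the minimum of 2000 UMIs per cell moved none of the summed ratios outside these intervals. The deposited matrices could hardly move them, since no member count differed there, and their values are counted among the 105.

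No paired analysis was possible because there is 1 library per genotype. Low counts limit Vpreb2 and Rag2 in single clusters, where a member with under 100 UMIs in both libraries together was not compared. Counting intervals leave out differences between animals, sorts and preparations, and those of levels and ratios also leave out differences between cells. UMIs shared by Vpreb1 and Vpreb2 cannot be divided with certainty.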

Other observations

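Barcodes that the authors left without annotation also held the members. Among 5452 KO and 4986 het barcodes, with median totals of 2562.5 and 2343 UMIs, Vpreb3 stood at 143 CPM in KO and 145 CPM in het, Rag1 at 14.6 and 16.7 CPM, Igll1 at 9.09 and 13.3 CPM and Dntt at 2.80 and 7.19 CPM. The hemoglobin gene Hbb-bs made up 72513 CPM in KO and 94463 CPM in het of these barcodes. A Rag1 UMI was present in 168 KO and 160 het barcodes without annotation.

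The plasma cell gene Jchain, which joins secreted immunoglobulin, had 5 UMIs in KO and 582 UMIs in het over the B-lineage clusters, 3 and 572 of them in cluster 2. The number of cells that held these UMIs is not given here. The list of 5 plasma cell markers, Jchain among them, stood at a summed 549 CPM in KO and 726 CPM in het in cluster 2, less than 1.5-fold apart. Igll1 had 10 and 2 UMIs in the KO and het cells of that cluster, and Dntt 4 and 7.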
